A study of Mus musculus with 4 samples.

Results

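A set of 9 genes that mark the start of glial production in the forebrain was followed through single-cell RNA-Seq of the fetal mouse cortex, namely *Olig1*, *Olig2*, *Pdgfra*, *Egfr*, *Ednrb*, *Mt3*, *Bcan*, *Mfge8* and *Fgfbp3*. They were taken by symbol, and all 9 were among the 16600 genes of the expression table, which covered 6562 cells. The cells came from the cortex of C57BL/6J fetuses at E18.5 (late gestation) and had been sorted as positive for CD24, a pan-neuronal surface marker, and negative for CD45, a marker of blood cells. The groups were 2 *Setd5*+/+ fetuses (libraries WT3 and WT6) and 2 *Setd5*+/- fetuses (libraries Het5 and Het9), with 1 droplet library for each fetus and no treatment. The heterozygotes came from the Setd5GFP line, which the study's methods describe as a heterozygous knockout. Since the sort selected neuronal cells, the glial progenitors described here are those that passed a neuronal gate.

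Radial glia line the ventricles of the fetal forebrain and first produce neurons. Around birth they turn to astrocytes and oligodendrocyte precursors, and precursors from the subpallium, where *Dlx* genes are expressed, enter the cortex beside those made locally in the pallium. *Olig1* and *Olig2* encode basic helix-loop-helix transcription factors of the oligodendrocyte lineage, and Olig2 is also used by subpallial progenitors. *Pdgfra* and *Egfr* encode receptor tyrosine kinases for platelet-derived and epidermal growth factor, through which oligodendrocyte precursors and late progenitors are driven to divide. *Ednrb* encodes the endothelin B receptor of astrocytes, radial glia and melanocytes. *Mt3* encodes a metal-binding metallothionein of the brain, *Bcan* the matrix proteoglycan brevican, *Mfge8* a secreted protein that bridges dying cells to integrins on phagocytes, and *Fgfbp3* a secreted carrier of fibroblast growth factors.

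On the GRCm38 (mm10) assembly with GENCODE M21 annotation, all 9 were protein-coding genes. *Olig2* (chromosome 16, 91225457 to 91228677, plus strand) and *Olig1* (chromosome 16, 91269772 to 91271933, plus strand) were neighbours 41.1 kb apart. *Pdgfra* lay on chromosome 5 (75152292 to 75198215, plus strand), *Egfr* on chromosome 11 (16752203 to 16918158, plus strand), *Ednrb* on chromosome 14 (103814625 to 103844402, minus strand) and *Mt3* on chromosome 8 (94152607 to 94154146, plus strand). *Bcan* lay on chromosome 3 (87987531 to 88000230, minus strand), *Mfge8* on chromosome 7 (79133768 to 79149060, minus strand) and *Fgfbp3* on chromosome 19 (36917550 to 36919615, minus strand). An antisense gene shared exonic sequence with *Olig1* (Gm15966). With *Pdgfra*, 2 antisense genes (Gm42802 and Gm42803) and the microRNA gene Mir7025 did so. None of these was a row of the table, and whether counting used strand was not given in the sources used here, so reads of *Olig1* and *Pdgfra* could not be separated from reads of those partners. The other 7 genes shared no exon with another gene, although 1 gene overlapped the span of *Egfr*.

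The sequences upstream of 4 of these genes are shown because their RNAs had the larger levels in cells with *Olig1* in every library, as described further on. They are the RefSeq promoter windows of GRCm38.p6, 5′ to 3′ on the strand of the gene, of the 250 bases before the annotated start, and for *Olig2* only the 157 bases outside any GENCODE exon (chr16:91225300-91225456). The others were chr14:103843702-103843951 for *Ednrb*, which is intronic to a longer GENCODE transcript, chr11:16751953-16752202 for *Egfr* and chr7:79149061-79149310 for *Mfge8*. Capitals mark TTGGC or its reverse complement GCCAA, a short motif that nuclear factor I proteins bind.
Olig2: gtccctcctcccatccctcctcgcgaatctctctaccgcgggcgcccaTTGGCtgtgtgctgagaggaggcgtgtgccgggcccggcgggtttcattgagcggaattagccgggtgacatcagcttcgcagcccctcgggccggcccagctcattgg
Ednrb: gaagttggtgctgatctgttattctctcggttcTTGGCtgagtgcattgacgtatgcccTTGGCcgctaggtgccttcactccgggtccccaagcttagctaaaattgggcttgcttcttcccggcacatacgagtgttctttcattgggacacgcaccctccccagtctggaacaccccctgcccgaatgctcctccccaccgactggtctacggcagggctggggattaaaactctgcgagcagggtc
Egfr: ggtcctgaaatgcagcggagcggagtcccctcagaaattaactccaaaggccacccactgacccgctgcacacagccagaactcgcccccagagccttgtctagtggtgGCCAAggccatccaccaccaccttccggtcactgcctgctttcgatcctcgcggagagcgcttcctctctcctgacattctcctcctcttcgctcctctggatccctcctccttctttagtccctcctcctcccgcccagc
Mfge8: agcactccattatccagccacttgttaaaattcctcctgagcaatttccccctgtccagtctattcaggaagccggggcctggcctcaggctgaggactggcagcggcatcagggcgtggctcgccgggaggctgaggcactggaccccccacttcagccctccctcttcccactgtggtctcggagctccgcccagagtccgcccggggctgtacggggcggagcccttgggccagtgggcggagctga
Of the 9 genes, 8 had a RefSeq window, and *Olig1* did not. This motif was present in 3 of the 8 whole windows, with 2 copies each in those of *Olig2* and *Ednrb* and 1 in that of *Egfr*, and it was present in 41.5% of the 32851 windows of all genes. The palindromic E-box CAGCTG, which does not overlap it, was in none of the 8 windows and in 13% of all windows. These matches are letters in a window and not measured sites. Nuclear factor I genes are among the glial transcription factors whose RNA is given below.

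Libraries held 1445 to 1954 cells with a median of 5398 to 5997 unique molecular identifiers (UMIs, each standing for 1 captured RNA molecule) per cell. *Setd5* itself was lower in both *Setd5*+/- libraries, at 0.540 (Het5) and 0.586 (Het9) counts per 10000 UMIs beside 1.18 (WT3) and 1.07 (WT6), a log2 difference of -0.89 ± 0.08 (SE, limma, adjusted p = 0.00696). *Xist*, the RNA of the inactive X chromosome, reached 20.6 in WT3 and 21.5 in WT6 but only 0.152 in Het5 and 0.310 in Het9, and the Y-linked *Ddx3y*, *Eif2s3y* and *Kdm5d* were higher in *Setd5*+/- (log2 differences of 2.53, 2.85 and 1.69). Genotype and sex therefore cannot be told apart in these 4 libraries. Cell barcodes found in all 4 libraries belonged to 224 cells, 56 in each. None of these was Fabp7-positive as defined below or held an *Olig1* UMI, so the values for Fabp7-positive cells do not rest on them. A further 44 cells shared a barcode between 2 libraries, 9 of them Fabp7-positive and 1 with *Olig1*, and 9 cells did so among 3 libraries.

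The first question was which cells held these RNAs. Cells with at least 10 counts of *Fabp7*, a fatty acid binding protein of radial glia, per 10000 UMIs were taken as Fabp7-positive, and they numbered 788 of 6562, or 12.01% (exact 95% binomial interval 11.2 to 12.8%, which like all intervals on shares here covers counting error only). By library they were 131 in WT3, 277 in WT6, 249 in Het5 and 131 in Het9. The bound is not a natural gap, since 169 cells lay between 8 and 10 counts per 10000 and 100 between 10 and 12, and 56.2% of all cells had at least 1 *Fabp7* UMI. Summed over 10 radial glia markers, such as *Slc1a3*, *Aldoc* and *Fabp7* itself, the Fabp7-positive cells held 83.3 to 107 counts per 10000 by library, against 14.3 to 23.2 over all cells. Since *Fabp7* defines the gate, much of this difference was set in advance. Markers of other cells were detected in Fabp7-positive cells too, with 6 of 6 intermediate progenitor (5.22 to 8.69), 8 of 8 excitatory neuron (3.27 to 5.72), 10 of 10 interneuron (1.24 to 1.77) and 6 of 6 cycling markers (7.09 to 8.97).

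These 788 cells held most UMIs of 8 of the 9 genes. They held 85.8% of the 541 *Olig1* UMIs, 76.4% of the 759 *Ednrb* UMIs, 75.3% of the 6379 *Mt3* UMIs, 70.3% of the 1705 *Fgfbp3* UMIs and 68.3% of the 2980 *Mfge8* UMIs. The share was lower for *Bcan* (59.8% of 671), *Pdgfra* (58.6% of 29) and *Egfr* (50.6% of 89), and for *Olig2* it was 42.6% of 643. *Olig2* was thus the gene of the 9 with the largest part of its RNA outside Fabp7-positive cells. As a reference, 2877 excitatory neurons with at least 5 UMIs of *Neurod6* and *Neurod2* together and without the *Fabp7* level were examined. Their median was 5779 UMIs per cell against 6795.5 in Fabp7-positive cells. Whether the UMIs of the 9 genes in these neurons were free RNA or the neurons' own RNA was not tested. Among these neurons 0.174% held an *Olig1* UMI, 0.417% an *Olig2* UMI, 0.104% an *Egfr* UMI and 0.243% an *Ednrb* UMI. The neuronal shares were higher for *Mfge8* (3.20%), *Bcan* (4.24%), *Fgfbp3* (8.10%) and *Mt3* (11.2%). In Fabp7-positive cells the same shares were 7.87% for *Olig1*, 12.8% for *Olig2*, 3.68% for *Egfr*, 36.9% for *Ednrb*, 70.3% for *Mfge8*, 29.4% for *Bcan*, 45.8% for *Fgfbp3* and 72.1% for *Mt3*, each well above the neuronal share.

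The genes differed in how many molecules a positive cell held. The 62 Fabp7-positive cells with *Olig1* held 7.48 *Olig1* UMIs on average, with a median of 2 and a maximum of 50, and 38.7% of them held a single UMI. The 52 other cells with *Olig1* held 1.48 on average, and 80.8% of them held a single UMI. *Olig2* behaved in the same way on a smaller scale, with means of 2.71 UMIs in 101 Fabp7-positive cells and 1.46 in 253 other cells. *Mt3* reached a maximum of 61 UMIs in a Fabp7-positive cell, *Fgfbp3* 39 and *Mfge8* 22. *Pdgfra* was near the limit of detection, with 29 UMIs in 20 cells of the whole series and at most 5 in one cell. It was in 0 of the 131 Fabp7-positive cells of WT3, which allows a share of cells with a UMI of up to 2.29%.

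Cells were next grouped by Leiden clustering of genes other than these 9 and *Setd5*, which gave 14 clusters, and the level of each gene was described in each cluster without a test. A cluster of 647 cells led by *Ttr*, *Fabp7*, *Aldoc*, *Mt3* and *Slc1a3* was radial glia-like (8 of 10 fixed markers among its top 50 genes) and held 572 of the 788 Fabp7-positive cells. A cluster of 396 cells led by *Gsx1* was subpallial progenitor-like (5 of 6 markers), and one of 723 cells led by *Top2a* was made of cycling cells. No cluster was led by oligodendrocyte precursor genes.

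**Figure D1:**
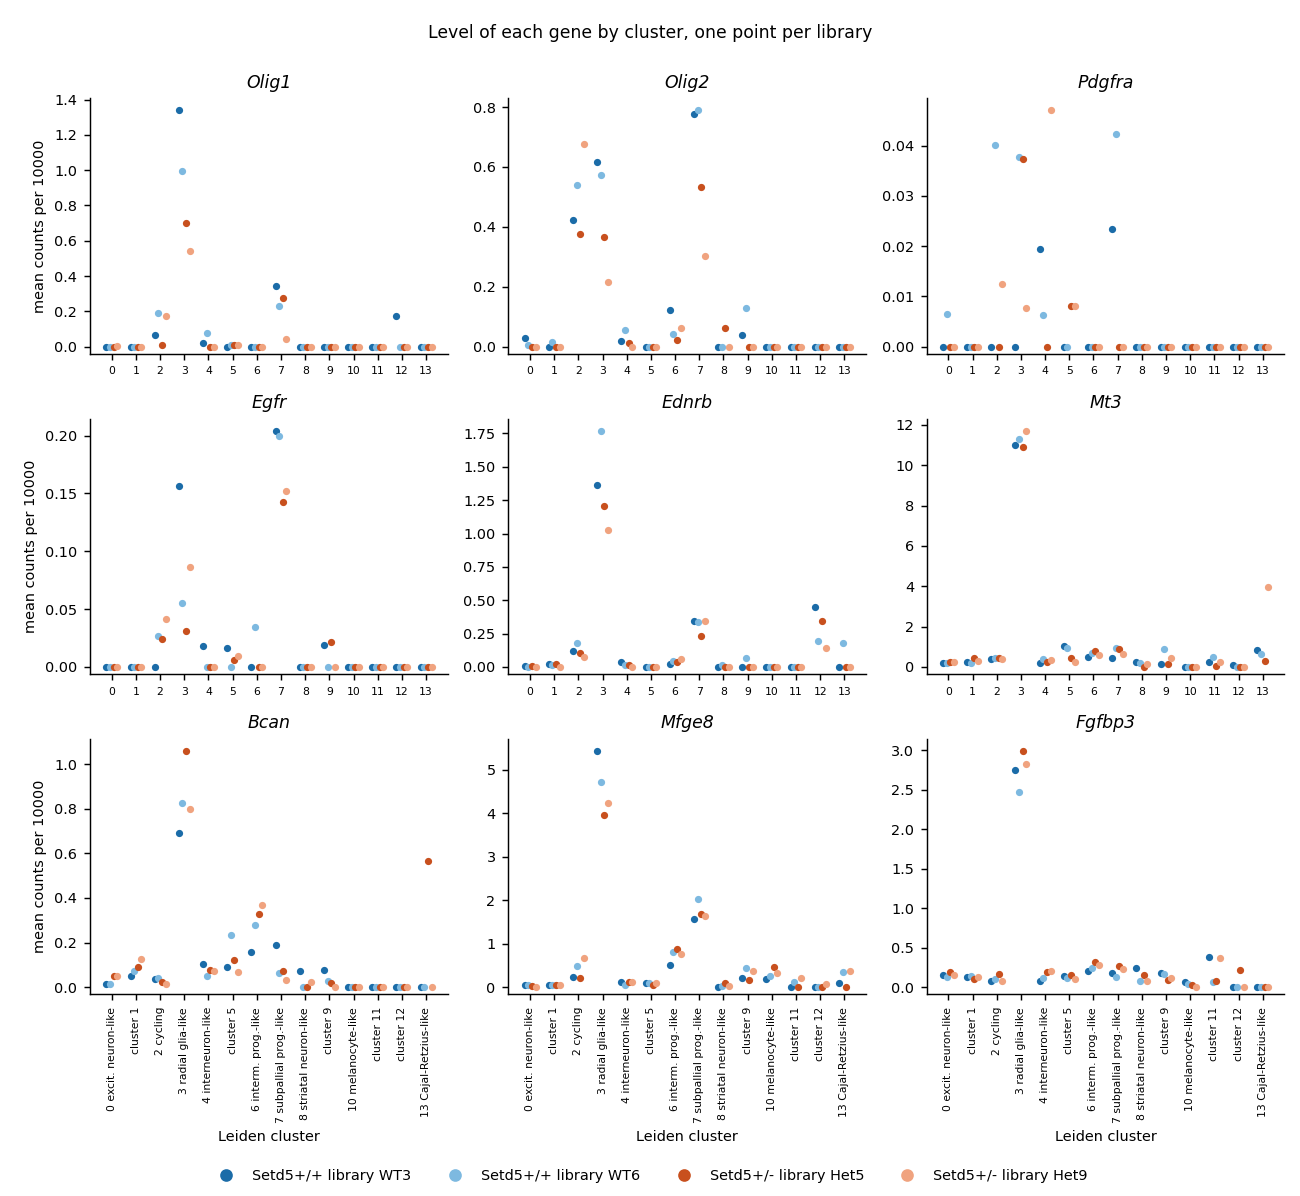
Mean counts per 10000 UMIs of each gene (y axis, linear, own scale per panel) in each of 14 Leiden clusters (x axis), with 1 point per library coloured by library and genotype. A group of 6 genes has its high points in the radial glia-like cluster in every library, whereas *Olig2* and *Egfr* reach highest in the subpallial progenitor-like cluster and *Pdgfra* stays under 0.05 throughout.

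*Mt3* was the most level of the 9 across libraries in the radial glia-like cluster, at 11.01 (WT3), 11.3 (WT6), 10.9 (Het5) and 11.7 (Het9) counts per 10000, and no other cluster approached it. *Mfge8* followed there at 4.58 ± 0.64 (SD, n = 4 libraries), *Fgfbp3* at 2.76 ± 0.22, *Ednrb* at 1.34 ± 0.32, *Olig1* at 0.895 ± 0.35 and *Bcan* at 0.843 ± 0.15. For these 6 genes the libraries of the radial glia-like cluster did not overlap those of the next cluster. *Olig1* was next at 0.222 ± 0.13 in the subpallial progenitor-like cluster and 0.111 ± 0.086 in cycling cells, which overlapped each other. *Olig2* had another order, with 0.601 ± 0.23 in the subpallial progenitor-like cluster, 0.504 ± 0.13 in cycling cells and 0.443 ± 0.19 in the radial glia-like cluster, and these 3 overlapped. *Egfr* was at 0.175 ± 0.032 in the subpallial progenitor-like cluster and at 0.0822 ± 0.054 in the radial glia-like cluster, again with overlap. *Bcan* was found next in the intermediate progenitor-like cluster at 0.283 ± 0.092, and *Mfge8* next in the subpallial progenitor-like cluster at 1.73 ± 0.20, which did not overlap its neighbours on either side. *Ednrb* levels of 0.141 to 0.451 in cluster 12 came from 10 UMIs in 5 cells of a mixed cluster in which 84 of 132 cells carried barcodes shared by all libraries. The melanocyte-like cluster held no *Ednrb* UMI.

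The genes whose pattern was most like each member were taken by Pearson's r over 52 means (13 clusters in 4 libraries), as a description of points that share libraries and depth. *Hes5*, a Notch target, came first for *Olig1* (r = 0.910), with *Ednrb* next (0.885). *Sox21* (0.876) and *Sall3* (0.873) were nearest to *Olig2*, and *Nbl1* (0.912), *H19* (0.846) and *Olig2* (0.787) to *Egfr*. *Lfng*, which modifies Notch receptors, came first for *Ednrb* (0.947) and *Ttyh1* for both *Mt3* (0.905) and *Fgfbp3* (0.884). *Pdpn* came first for *Mfge8* (0.894). For *Pdgfra* no gene passed 0.583.

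The next question was which of the genes were found in the same Fabp7-positive cells. Of the 62 cells with *Olig1*, 37 also held *Olig2*, or 59.7% (interval 46.4 to 71.9%), against 8.82% of the 726 cells without *Olig1*. *Pdgfra* was in 11.3% against 0.275%, *Egfr* in 22.6% against 2.07%, *Ednrb* in 71.0% against 34.0%, *Mfge8* in 87.1% against 68.9% and *Bcan* in 48.4% against 27.8%. *Mt3* (77.4% against 71.6%) and *Fgfbp3* (54.8% against 45.0%) had overlapping intervals. These shares are pooled over libraries, and WT6 gave 30 of the 62 cells. By library *Olig2* was in 50% to 66.7% with *Olig1* against 5.6% to 10.9% without, *Egfr* in 13.3% to 50% against 1.67% to 2.43% and *Ednrb* in 50% to 76.7% against 28.7% to 37.2%, with no overlap. *Bcan* (16.7% to 70% against 20.9% to 33.9%) and *Mfge8* (66.7% to 93.8% against 51.3% to 75.7%) overlapped between libraries, and *Pdgfra* was at 0 in both groups of WT3. *Bcan* and *Mfge8* were lower with *Olig1* than without in Het9. Median depth was 6912 UMIs per cell with *Olig1* and 6794.5 without. After every cell was thinned to 3000 UMIs, *Olig2* was in 44.2% of 43 cells with *Olig1* and in 5.21% of the others, and *Egfr* in 16.3% against 1.51%. Together *Olig1*, *Olig2* and *Pdgfra* were found in 7 cells, 4 of them in WT6, 2 in Het5 and 1 in Het9. Of the 9 Fabp7-positive cells with *Pdgfra*, 7 held *Olig1*, 7 held *Olig2* and 1 held *Fgfbp3*.

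**Figure D2:**
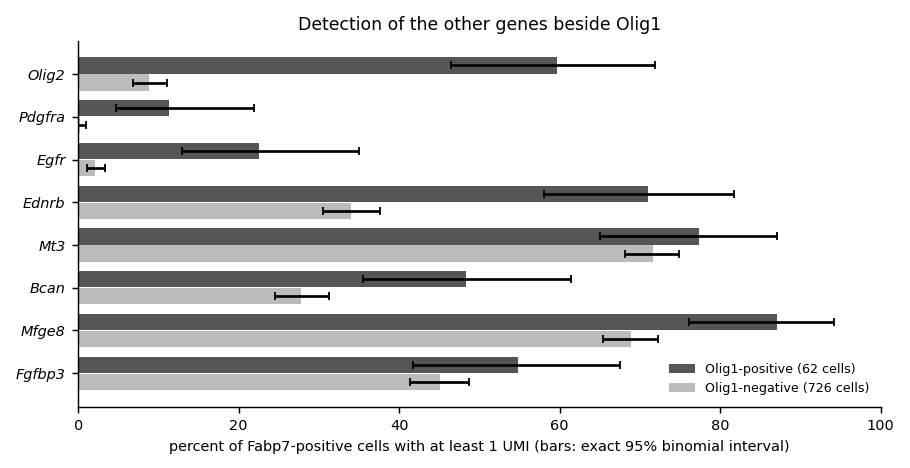
Percent of Fabp7-positive cells with at least 1 UMI of each gene (x axis) in 62 cells with *Olig1* (dark bars) and 726 without (light bars), where error bars are exact 95% binomial intervals. The intervals are apart for *Olig2*, *Pdgfra*, *Egfr*, *Ednrb*, *Bcan* and *Mfge8* and overlap for *Mt3* and *Fgfbp3*, over cells pooled from 4 libraries.

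Cells with *Olig1* held more of the 9 genes in all, to which *Olig1* itself adds 1. Of the 62 cells, 20 held 6 of the 9 genes, 7 held 7, 2 held 8 and 1 held all 9. Of the 726 cells without *Olig1*, 4 held 6 and none held more. Of all Fabp7-positive cells 96 held none, as did 2161 of the 2877 reference neurons (75.1%).

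Levels were then compared between cells with and without *Olig1* within each library, with the library as a block and *Olig1* left out of the genes tested. Among the 8 other genes *Olig2*, *Ednrb* and *Mfge8* rose and none fell, while *Egfr* reached the threshold only by way of the filter on low genes, as given below. Of all 8405 genes tested, 2% were called, 76 higher (0.904%) and 92 lower (1.09%). *Olig2* was at 2.42, 3.79, 4.75 and 4.28 counts per 10000 in cells with *Olig1* (WT3, WT6, Het5, Het9) and at 0.344, 0.311, 0.193 and 0.115 without. The groups did not overlap, and the difference was 3.54 ± 0.29 on the log2 scale (SE, limma, adjusted p = 6.82e-09), or 11.6-fold. *Egfr* was at 0.762, 0.425, 0.280 and 1.43 against 0.0469, 0.0561, 0.0371 and 0.0492, a log2 difference of 2.28 ± 0.43 (limma, adjusted p = 0.00219). It was higher in 4 of 4 libraries without overlap. *Ednrb* was at 2.29, 3.74, 2.87 and 1.52 against 0.780, 1.27, 0.847 and 0.765, a log2 difference of 1.37 ± 0.22 (limma, adjusted p = 0.000351). *Mfge8* was at 9.93, 9.25, 7.03 and 7.87 against 2.87, 3.595, 3.36 and 3.38, a log2 difference of 1.33 ± 0.15 (limma, adjusted p = 2.08e-06). The calls of *Olig2*, *Ednrb* and *Mfge8* held when a cell needed 2 *Olig1* UMIs and when each library was left out in turn. *Egfr* passed the filter (a mean of 0.1 over both groups of cells) only through the cells with *Olig1*, at a mean of 0.723 against 0.0473, and the filter thus favours such a difference. With no filter on low genes its adjusted p was 0.102, and with 0.01 added in place of 0.1 it was 0.0691, so its difference is given as a description.

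Markers of other cells moved with this split, with no overlap between the libraries of each side, and their part in these differences was not tested. Summed counts per 10000 were 0.400 to 0.855 with *Olig1* against 5.79 to 9.09 without for 6 intermediate progenitor markers (4 of 6 detected with *Olig1*, *Neurog1* and *Tac2* at 0), 0.670 to 1.499 against 3.58 to 6.32 for 8 excitatory neuron markers (*Slc17a7* at 0 with *Olig1*) and 3.83 to 6.35 against 1.86 to 2.79 for 6 subpallial progenitor markers. For 5 oligodendrocyte precursor markers they were 0.399 to 2.80 with *Olig1* against 0.0470 to 0.0864 without (*Gpr17* at 0 without *Olig1*).

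The other 4 genes did not pass the test. *Pdgfra* was at 0, 0.546, 0.710 and 0.142 counts per 10000 against 0, 0.00437, 0.00351 and 0, a log2 difference of 1.72 (95% interval 0.63 to 2.80, limma, adjusted p = 0.1001). *Bcan* differed by 0.73 on the log2 scale (0.02 to 1.45, limma, adjusted p = 0.401), at 2.21 and 2.301 with *Olig1* in WT6 and Het5 but 0.680 and 0.283 in WT3 and Het9. *Mt3* and *Fgfbp3* each differed by 0.07, with intervals of -0.29 to 0.43 and -0.40 to 0.54. Both were higher with *Olig1* in WT3 and WT6 and lower in Het5 and Het9, where 10 and 6 cells held *Olig1*. *Pdgfra* passed the filter only through the cells with *Olig1* (mean 0.350 against 0.00197), so that its adjusted p without WT3 (2.29, limma, adjusted p = 0.0267) supports nothing, and with no filter it was 0.222. Without Het9 *Bcan* was (1.31, limma, adjusted p = 0.0205).

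**Figure D3:**
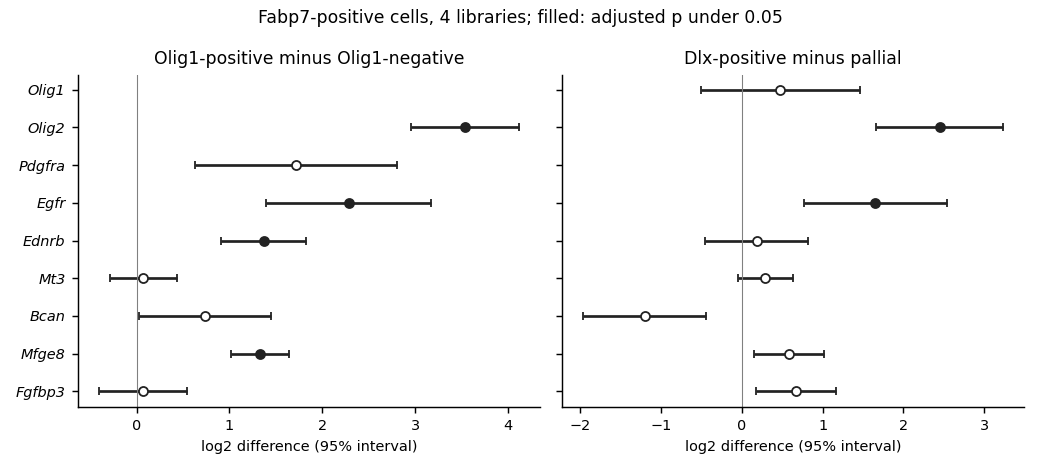
Log2 difference in mean counts per 10000 (x axis, after adding 0.1) for each gene between Fabp7-positive cells with and without *Olig1* (left) and between Dlx-positive and pallial Fabp7-positive cells (right), with points for the limma estimate over 4 libraries, bars for the 95% interval and filled points for adjusted p under 0.05. *Olig2* is filled in both panels and *Ednrb* and *Mfge8* in the left panel only. *Egfr* is filled in both but passed the filter on low genes only through the cells where it is high, as did *Pdgfra* on the left, and *Pdgfra* was below the filter on the right.

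The related gene lists showed what else the cells with *Olig1* held, beside the 2% of all genes called in this contrast. Of 12 oligodendrocyte precursor genes 7 were tested, and *Ptprz1* (1.31), a receptor phosphatase also of radial glia, and *Cspg5* (1.24) rose and none fell. *C1ql1* (1.95) was called too, but it passed the filter only through the cells with *Olig1* (0.656 against 0.0508). *Sox10*, the defining factor of the oligodendrocyte lineage, was below the filter and was found in 4 of the 62 cells (6.45%) and 1 of the 726 (0.138%). Of 17 astrocyte genes 14 were tested and 3 rose, among them *Apoe* (1.47) and *Slc1a3* (0.95). Of 14 gliogenic transcription factors 13 were tested, with 3 higher, among them *Id3* (1.27) and *Hes5* (1.05), and *Id4* (-1.46) and the nuclear factor I gene *Nfix* (-1.09) lower. Among 35 ligands and partners of the 9 genes 12 were tested. The integrin *Itgb5* (2.08), a receptor for Mfge8, and the matrix proteoglycan *Vcan* (1.55) were higher, while the metallothioneins *Mt1* (-1.85) and *Mt2* (-1.25) were lower. Of 12 radial glia genes, all tested, *Ptprz1*, *Hes5* and *Slc1a3* were higher and *Pax6* (-2.28), a factor of dorsal radial glia, was lower. None of 8 cycling genes was called (median -0.05).

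Most cells with *Olig1* could not be placed in the pallium or the subpallium. Fabp7-positive cells were called pallial with 2 or more UMIs over *Emx1*, *Emx2*, *Neurog2*, *Eomes*, *Neurod6*, *Neurod2* and *Tbr1* and more of these than of *Dlx1*, *Dlx2*, *Dlx5*, *Dlx6* and *Dlx6os1*, and Dlx-positive by the converse. This gave 444 pallial cells, 65 Dlx-positive cells and 279 of neither class. *Olig1* was in 3.38% of pallial cells (interval 1.90 to 5.51%), 10.8% of Dlx-positive cells (4.44 to 20.9%) and 14.3% of cells of neither class (10.4 to 19.0%). It was in 20.95% of the 105 cells without a single UMI of any of these 12 class genes. Of the 62 cells, 40 (64.5%) were of neither class, 15 pallial and 7 Dlx-positive. *Emx1*, the pallial homeobox gene, was in 3 of the 62 (4.84%) against 42.1% of cells without *Olig1*, whereas its relative *Emx2* was in 29.0% against 35.3%.

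The comparison of Dlx-positive with pallial Fabp7-positive cells asked which of the genes differed between the 2 classes. The classes also differed in other markers without overlap, and the part of these in the differences was not tested. Summed intermediate progenitor markers were at 9.37 to 14.2 counts per 10000 in pallial cells against 0.257 to 3.596 in Dlx-positive cells, excitatory neuron markers at 5.51 to 9.07 against 0.490 to 1.99, and interneuron markers at 0.253 to 0.669 against 8.86 to 16.7. Some of these markers are themselves class genes. *Olig2* was higher in Dlx-positive cells and none of the 9 was called lower. Of all 8120 genes tested, 4.3% were called, 138 higher (1.7%) and 211 lower (2.6%). The median of all genes was -0.10 on the log2 scale, and differences are to be read against it. *Olig2* was at 0.943, 1.49, 0.645 and 1.61 counts per 10000 in Dlx-positive cells (WT3, WT6, Het5, Het9) and at 0.222, 0.222, 0.128 and 0 in pallial cells. These did not overlap and differed by 2.45 ± 0.38 on the log2 scale (limma, adjusted p = 0.00012). The call was lost with 0.01 added in place of 0.1 (adjusted p = 0.051) and with *Fabp7* at 30 per 10000 (1.86, limma, adjusted p = 0.372). *Egfr* was at 0.408, 0.534, 0.143 and 0.261 against 0.0768, 0.0326, 0.00749 and 0.0144, a log2 difference of 1.65 ± 0.43 (limma, adjusted p = 0.0223). It passed the filter only through the Dlx-positive cells, at a mean of 0.336 against 0.0328, and with no filter its adjusted p was 0.088, so this difference too is given as a description. It rests on 13 UMIs in Dlx-positive and 9 in pallial cells, and the adjusted p also rose above 0.05 without WT6 (adjusted p = 0.251), Het5 (0.0614) or Het9 (0.081). So it did with 0.01 added in place of 0.1 (adjusted p = 0.149), with *Fabp7* at 30 per 10000 (0.40, limma, adjusted p = 0.915) and with the classes at 3 UMIs (0.0663).

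*Bcan* was lower in the Dlx-positive cells of 4 of 4 libraries (0, 0.470, 0.371 and 0.174 against 0.290, 0.637, 0.840 and 0.661) without passing the test (log2 difference -1.20, 95% interval -1.96 to -0.44, limma, adjusted p = 0.0658). It was called with pallial cells taken by *Emx1* and *Emx2* alone (-1.42, limma, adjusted p = 0.021) and with UMIs summed over cells (-1.49, limma, adjusted p = 0.0115). *Olig1* differed by 0.47 (-0.51 to 1.46), from 0.0823 in Het5 to 0.972 in Het9 in Dlx-positive cells. With the classes set at 1 UMI (1.20, limma, adjusted p = 0.012) or 3 UMIs (2.28, limma, adjusted p = 0.00225) in place of 2 it was called. *Ednrb* differed by 0.18 (-0.46 to 0.82). *Mfge8* (0.59), *Fgfbp3* (0.67) and *Mt3* (0.29) were not called either. With the class at 1 UMI, *Ednrb* (1.16), *Mfge8* (1.01) and *Fgfbp3* (0.67) were called beside *Olig1*, *Olig2* and *Egfr*, where 3.8% of all genes were (limma). With *Fabp7* at 1 UMI, *Olig2*, *Ednrb*, *Mfge8* and *Bcan* were called, where 48.8% of all genes were. Without WT3, *Mfge8* was called (0.89, limma, adjusted p = 0.0019), and without WT6, *Fgfbp3* was (1.04, limma, adjusted p = 0.018). *Pdgfra* held 1 UMI in Dlx-positive and 2 in pallial cells and was not tested. Dlx-positive cells numbered 9, 20, 22 and 14 by library, 14 of 65 sat at the bound of 2 UMIs, and 25 of 65 also held a pallial UMI.

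Other genes of the pathway separated the classes further. These counts stand beside the 4.3% of all genes called in this contrast. Of 12 gliogenic transcription factors tested, 1 was higher in Dlx-positive cells and 3 were lower, namely *Id4* (-2.05), *Nfix* (-1.20) and *Nfib* (-0.96). Of 14 astrocyte genes, *Slc1a2* (1.10) and *Mlc1* (1.01) were higher and *Clu* (-2.04) and *Aldoc* (-1.07) lower. *Hopx* (-2.14) was also called lower, having passed the filter only through the pallial cells. Of 9 ligands and partners, *Mt1* (-1.92), *Mt2* (-1.18) and the receptor *Fgfr1* (-1.004) were lower and none higher. Of 3 oligodendrocyte precursor genes *Ptprz1* (0.98) was higher. All 8 cycling genes were higher, from 0.80 for *Hmgb2* to 1.83 for *Nusap1*, and their part in the *Olig2* and *Egfr* values was not tested. Of 12 radial glia genes *Ptprz1* and *Sox2* (0.57) were higher and *Pax6* (-1.51), *Vim* (-1.33), *Aldoc* and *Gas1* (-0.95) lower.

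**Figure D4:**
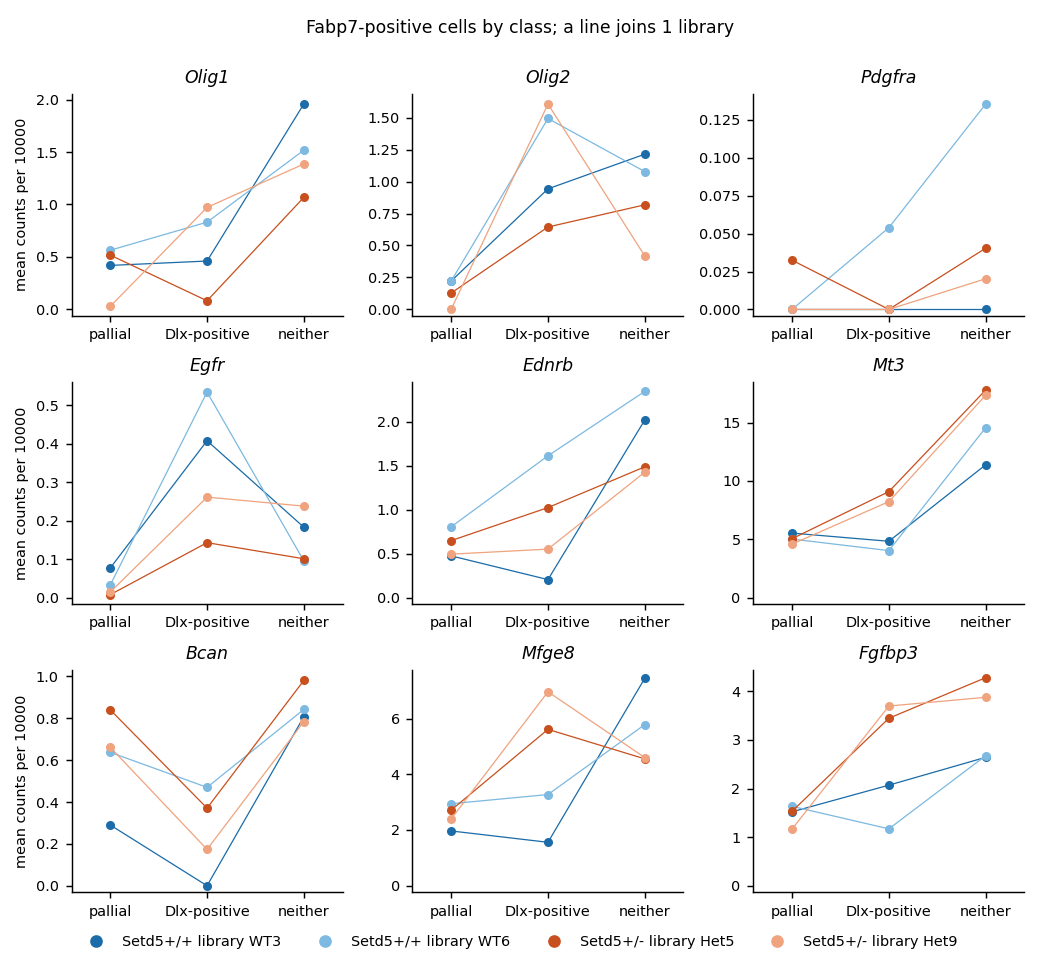
Mean counts per 10000 UMIs of each gene (y axis, linear, own scale per panel) in pallial, Dlx-positive and unassigned (neither) Fabp7-positive cells, with 1 line per library. In all 4 libraries *Olig2* and *Egfr* are higher and *Bcan* is lower in Dlx-positive than in pallial cells, while *Mt3* is lower there in both *Setd5*+/+ libraries and higher in both *Setd5*+/- libraries.

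Cells of neither class had higher levels of several genes than pallial cells, given here as a description. *Mt3* was at 15.3 ± 3.0 counts per 10000 in them (SD, n = 4 libraries) against 5.04 ± 0.39 in pallial cells, *Mfge8* at 5.60 ± 1.4 against 2.50 ± 0.42, *Fgfbp3* at 3.37 ± 0.84 against 1.46 ± 0.20 and *Ednrb* at 1.82 ± 0.44 against 0.606 ± 0.15. *Olig1* was at 1.48 ± 0.37 against 0.382 ± 0.24. For these 5 genes the means of Dlx-positive cells lay between, with *Mt3* at 6.54 ± 2.5, *Mfge8* at 4.35 ± 2.4, *Fgfbp3* at 2.60 ± 1.2, *Ednrb* at 0.849 ± 0.61 and *Olig1* at 0.587 ± 0.40. Their libraries overlapped those of neither class for *Mfge8*, *Fgfbp3* and *Ednrb* and not for *Mt3* and *Olig1*. Summed radial glia markers, of which *Fabp7* is one, were also higher in cells of neither class, at 118 to 155 counts per 10000 against 66.0 to 88.5 in pallial cells. Intermediate progenitor markers were at 0.535 to 0.663 against 9.37 to 14.2 in pallial cells and excitatory neuron markers at 0.303 to 1.08 against 5.51 to 9.07. Both of these lists hold genes that define the pallial class, so their differences were partly set in advance. The part of these marker sums in the differences of the single genes was not tested. Outside the *Fabp7* gate the classes differed for *Olig2*, which was in 11.3% of 1882 other Dlx-positive cells and 0.546% of 3479 other pallial cells. Over all cells of both classes *Olig2* differed by 1.52 on the log2 scale (limma, adjusted p = 2.06e-08), where 50% of all genes were called.

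The design asked whether the genes differed between *Setd5*+/+ and *Setd5*+/- fetuses. None of the 9 was called in the Fabp7-positive cells, where 17 of 8264 genes (0.206%) were. Of the 9 genes 7 passed the filter on low values, and 4 of these 7 had an unadjusted p under 0.05 (*Olig2*, *Olig1*, *Ednrb* and *Fgfbp3*), against 425 of all genes (5.14%). *Olig2* was at 0.597 (WT3), 0.687 (WT6), 0.376 (Het5) and 0.306 (Het9) counts per 10000. The groups did not overlap, as was true of 34.3% of all genes tested, and the log2 difference was -0.75 ± 0.17 (limma, unadjusted p = 0.000571, adjusted p = 0.197). *Olig1* was, in the same order of libraries, at 0.927, 1.0, 0.641 and 0.565, again without overlap, a log2 difference of -0.60 ± 0.15 (limma, unadjusted p = 0.00115, adjusted p = 0.308). *Ednrb* was at 0.964, 1.54, 0.928 and 0.800, with 1 *Setd5*+/+ library apart from the rest (-0.46 ± 0.18, limma, adjusted p = 0.869), and without WT3 it was called (-0.77, limma, adjusted p = 0.0383). That fit sets WT6 alone, the library that stands apart, against 2 others, and here as in every genotype fit without 1 library the lone fetus is assumed to vary like those of the other genotype. *Mfge8* (-0.16), *Mt3* (0.15), *Bcan* (0.34) and *Fgfbp3* (0.26) had intervals from -0.36 to 0.05, -0.04 to 0.34, -0.08 to 0.76 and 0.02 to 0.50. By level, 4 of the 9 lay lower without overlap in *Setd5*+/- (*Olig1*, *Olig2*, *Ednrb* and *Mfge8*) and 1 higher (*Fgfbp3*), where 18.2% of all genes lay lower and 16.2% higher.

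By the share of cells with a UMI, *Olig1* and *Olig2* were lower in both *Setd5*+/- libraries, *Mt3* was higher and the other 6 genes overlapped. After each cell was thinned to 3000 UMIs, *Egfr* was lower without overlap (3.97%, 3.27%, 0.823% and 1.55% in the order WT3, WT6, Het5, Het9) and *Bcan* higher (9.52%, 15.3%, 21.8% and 17.1%). Thinning was a single random draw, and the share of all genes without overlap after it was not computed. Shares after thinning are therefore given as a description. *Olig1* was in 12.2% (WT3), 10.8% (WT6), 4.02% (Het5) and 4.58% (Het9) of Fabp7-positive cells. Over all cells it was in 2.00%, 2.81%, 0.994% and 0.900%, *Olig2* in 5.99%, 6.81%, 5.03% and 3.32% and *Egfr* in 1.10%, 1.07%, 0.936% and 0.830%, and none of these overlapped before or after thinning. In Fabp7-positive cells the *Olig1* shares did not overlap before or after thinning either, and after it they were 10.3%, 6.91%, 2.47% and 3.88% of Fabp7-positive cells. Lower shares without overlap in *Setd5*+/- were found for 9.8% of all genes tested in Fabp7-positive cells and 7.99% in all cells, and with 2 fetuses against 2 the two-sided exact permutation test cannot go below p = 0.33, the value obtained. *Olig2* was in 15.3%, 16.6%, 9.64% and 8.40% of Fabp7-positive cells, and after thinning in 6.35%, 10.2%, 6.58% and 3.88%, which overlapped. *Mt3* was in 61.8%, 73.3%, 75.1% and 74.0%, where 22.4% of all genes had higher shares without overlap, and its shares overlapped after thinning. *Mfge8*, which was lower by level, had a mean share of 66.9% in *Setd5*+/+ and 69.9% in *Setd5*+/-. The numbers of Fabp7-positive cells with *Olig1* were 16, 30, 10 and 6. The 62 cells held 7.59 to 16.0 *Olig1* counts per 10000 by library.

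Several measures moved with genotype beside these values. *Fabp7* itself was higher in *Setd5*+/- within its own gate, at 64.7 and 64.0 counts per 10000 against 46.4 and 50.8 (log2 difference 0.41). Its level chose these cells, so this difference is given as a description. Summed radial glia markers were at 107 in both *Setd5*+/- libraries and at 83.3 and 91.7 in *Setd5*+/+. *Fabp7*, which is among these markers, made up most of each sum and most of the difference. Interneuron markers (10 of 10 detected) were at 1.30 and 1.24 in *Setd5*+/- and 1.77 and 1.38 in *Setd5*+/+, and striatal neuron markers (6 of 7, *Drd1* at 0) at 0.767 and 0.655 beside 1.06 and 1.86. Sums of Cajal-Retzius, immune, endothelial and mural markers, at most 0.267, did not overlap either. Those of intermediate progenitor, excitatory neuron, subpallial progenitor, oligodendrocyte precursor, cycling, melanocyte, fibroblast, choroid plexus and ependymal markers overlapped. Among all single genes tested in Fabp7-positive cells, 34.3% did not overlap between genotypes. Cells of neither class were 43 of 131 in WT3 and 121 of 277 in WT6 but 73 of 249 in Het5 and 42 of 131 in Het9, a larger share in both *Setd5*+/+ libraries. Summed erythroid markers, 5 of 5 detected, ranged from 19.6 to 23.1 counts per 10000 in *Setd5*+/- and from 5.87 to 7.41 in *Setd5*+/+ Fabp7-positive cells. In Het5 they were high in cells of neither class (67.4) and not in pallial cells (4.73), and over all cells the genotypes overlapped, at 15.6 and 61.9 in *Setd5*+/- and 40.8 and 33.7 in *Setd5*+/+. Dlx-positive cells made up 26.4% and 24.8% of all *Setd5*+/- cells against 31.7% and 34.6%. The part of each in the *Olig1* and *Olig2* values was not tested, and sex moves with them as well. Within all Dlx-positive cells *Olig2* was at 0.267 and 0.292 in *Setd5*+/+ beside 0.255 and 0.242 in *Setd5*+/- (log2 difference -0.12, limma, adjusted p = 1.0). Over all cells none of the 9 was called, where 7 of 8137 genes (0.086%) were, and 2 of the 7 tested had an unadjusted p under 0.05 (*Olig2*, -0.41, and *Olig1*, -0.40), against 4.34% of all genes. With Dlx-positive cells left out, *Olig1* differed by -0.50 (limma, adjusted p = 0.999), beside an adjusted p of 0.994 with them.

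**Figure D5:**
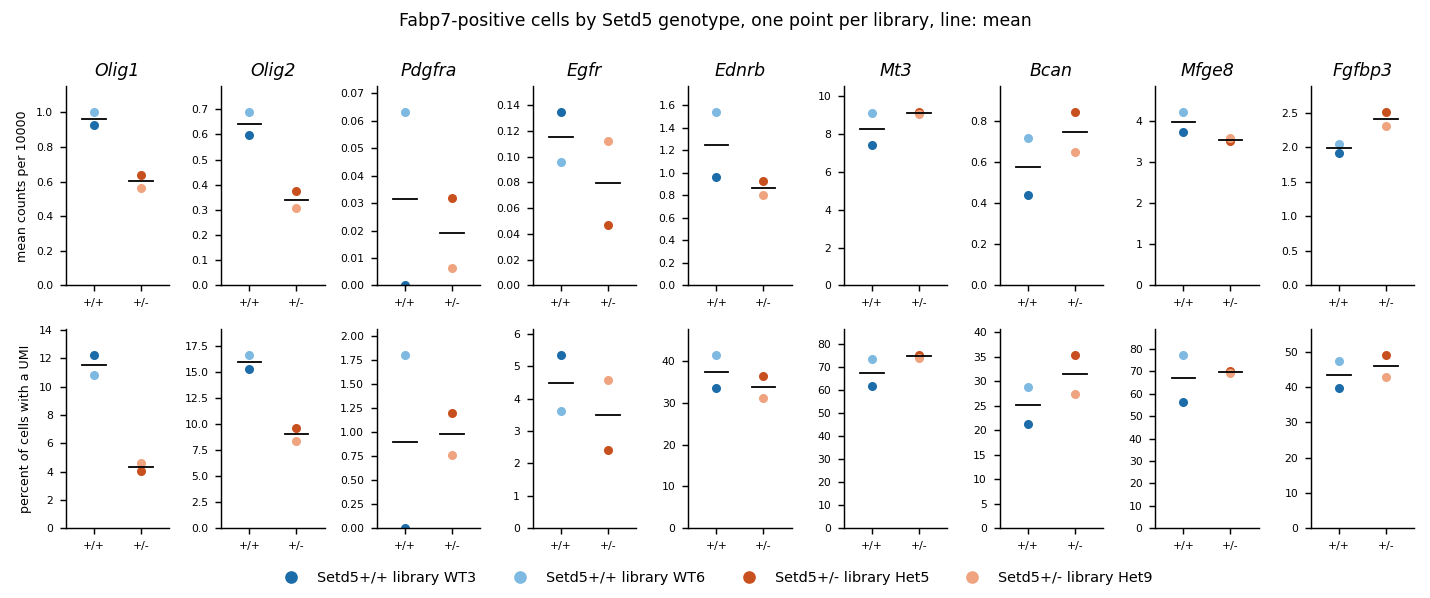
Mean counts per 10000 UMIs (upper row) and percent of cells with at least 1 UMI (lower row) of each gene in Fabp7-positive cells, by *Setd5* genotype (x axis), with 1 point per library and a line at the mean of 2 libraries, on linear axes from 0. The points of *Olig1* and *Olig2* are lower in both *Setd5*+/- libraries in both rows and those of *Egfr* and *Bcan* overlap in both.

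In pallial Fabp7-positive cells alone none of the 9 was called, where 4 of 8172 genes (0.0489%) were, and 2 of the 7 tested (*Bcan* and *Olig2*) had an unadjusted p under 0.05, against 3.81% of all genes. *Olig2* was at 0.222, 0.222, 0.128 and 0 counts per 10000 (-1.09 ± 0.37, limma, adjusted p = 0.985). *Olig1* was at 0.419, 0.564, 0.518 and 0.0288 (-1.06 ± 0.51, limma, adjusted p = 0.985), so that Het5 lay among the *Setd5*+/+ libraries and Het9 apart. *Bcan* was at 0.290, 0.637, 0.840 and 0.661 (0.66 ± 0.28, limma, adjusted p = 0.985). With *Fabp7* at 30 per 10000 in all 4 libraries *Olig1* was called (-2.43, limma, adjusted p = 0.0493), where 0.0733% of all genes were. The values also moved with single libraries, in fits where 1 genotype is a single fetus. *Olig1* was called without Het5 (-2.19, limma, adjusted p = 0.0112) or WT3 (-1.24, limma, adjusted p = 0.0492) and *Bcan* without WT6 (1.12, limma, adjusted p = 0.00375). Without WT3 or WT6 the spread was taken almost wholly from the trend across genes, so these calls do not measure the spread between fetuses. Of the gene lists, *Aldoc* (0.58, limma, adjusted p = 0.0411) among 14 astrocyte and 12 radial glia genes was called in all Fabp7-positive cells. None of 12 gliogenic transcription factors, 4 oligodendrocyte precursor genes, 10 ligands and partners or 8 cycling genes was called there.

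Finally, the difference between Dlx-positive and pallial cells was compared between genotypes by an interaction term. None of the 9 was called, where 2 of 8120 genes (0.0246%) were. On simulated data, drawn with no further spread between cells than counting error, this test recovered 4.08% of 2-fold and 31.9% of 4-fold changes. An unadjusted p under 0.05 was found for 3 of the 8 tested (*Mt3*, *Mfge8* and *Fgfbp3*), against 5.31% of all genes. *Apoe*, an astrocyte lipoprotein, was 1 of the 2 called (2.39, limma, adjusted p = 0.00734). In Dlx-positive cells *Mt3* was at 4.82 (WT3), 4.02 (WT6), 9.08 (Het5) and 8.22 (Het9) counts per 10000, against 5.53, 5.01, 5.05 and 4.58 in pallial cells, so that it was lower in Dlx-positive cells in *Setd5*+/+ and higher in *Setd5*+/-. The interaction was 1.09 ± 0.27 on the log2 scale (limma, unadjusted p = 0.0002, adjusted p = 0.163). *Mfge8* gave 1.35 ± 0.33 (limma, adjusted p = 0.172), and it was called without WT6 (1.58, limma, adjusted p = 0.0124), where WT3 with its 9 Dlx-positive cells is the lone *Setd5*+/+ library and the spread is again that of the trend across genes, and with pallial cells taken by *Emx1* and *Emx2* alone (1.56, limma, adjusted p = 0.0369). *Fgfbp3* gave 1.37 ± 0.40 (limma, adjusted p = 0.508). By library in the same order, *Mfge8* was at 1.56, 3.27, 5.61 and 6.96 in Dlx-positive cells and *Fgfbp3* at 2.07, 1.17, 3.45 and 3.70. Summed radial glia markers moved along with the 3 genes in these cells, at 44.9, 68.0, 106 and 107 counts per 10000, and their part was not tested.

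Within Dlx-positive cells that held *Fabp7*, the genotypes were compared only with the bound at 1 *Fabp7* UMI, which left 140 to 254 cells per library. None of the 6 genes tested was called, where 10 of 7640 genes (0.131%) were. *Fgfbp3* (1.06 ± 0.20) and *Mt3* (0.83 ± 0.15) were each at an adjusted p of 0.0586 (limma), and *Olig1* (-0.53, 95% interval -1.19 to 0.13) and *Olig2* (-0.17, -0.57 to 0.23) at 0.999.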

How the data were processed

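Single-cell libraries were made with the 10x Genomics 3′ version 2 kit. The authors aligned, counted and aggregated reads with Cell Ranger 2.1 (mm10) and normalized in Seurat 2.3.0, per the labels. What the authors deposited is the natural log of 1 plus each gene's count scaled to 10000 UMIs in its cell. Whole UMIs were recovered for 100% of the 14848520 values above 0 (tolerance 0.001), and no sample column was left unused. Per library the table held fewer cells than the labels give as sequenced. The filter on cells was not given in the sources used here, and no doublet caller was run.

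Values were averaged over the cells of each library, and log2(mean counts per 10000 + 0.1) was fitted with limma 3.58.1 (trend) for genes with a mean of at least 0.1, with Benjamini-Hochberg adjustment over all genes and a threshold of 0.05. Fold changes of low genes are understated by the added 0.1. Contrasts between cells of the same libraries had the library as a block. The replicate is the fetus, and groups came from the genotype part of each cell name. Genotype p-values rest on the spread between 2 fetuses per genotype, moderated by the trend across genes. Contrasts within libraries rest on the spread of the difference over 4 libraries, moderated in the same way. The moderated fits had 15.2 degrees of freedom for genotype in Fabp7-positive cells and 40.7 for the interaction. Much of the spread was thus taken from the trend, and p-values do not measure the spread between fetuses alone. Clusters used scanpy 1.11.5 and Leiden at resolution 0.4. On simulated library means with known changes, the Olig1 contrast recovered 47.3% of 4-fold and 11.6% of 2-fold changes, the genotype contrast in Fabp7-positive cells 97.9% and 65.1%, the contrast of Dlx-positive with pallial cells 67% and 30.5%, and the interaction 31.9% and 4.08%. The simulated data held counting error and a fixed spread between libraries, but no further spread between cells. Genes carried by few cells, such as *Olig1*, may thus be recovered less often than these figures state. Genes outside the 9 were named from fixed lists: called members (at most 4 per list, by size), the 3 genes nearest in pattern, and leading cluster genes. The members and lists were chosen with earlier results of these data known. The genotype contrast in Dlx-positive Fabp7-positive cells was run only with *Fabp7* at 1 UMI, since at the main level 2 libraries had fewer than 20 such cells. A few genes that the naming rule selects are not reported here.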

Additional observations from a re-analysis of the deposited data

Results flagged for a closer look

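*Mt3* was marked because its difference between Dlx-positive and pallial Fabp7-positive cells had opposite signs in the genotypes. Dlx-positive minus pallial, it was -0.704 (WT3), -0.989 (WT6), 4.04 (Het5) and 3.65 (Het9) counts per 10000. The interaction, 1.09 on the log2 scale, did not pass the test over all genes (limma, adjusted p = 0.163). It rests on 9 to 22 Dlx-positive cells per library. The share of all genes with such opposite signs was not computed. Summed radial glia markers had the same pattern, at 44.9, 68.0, 106 and 107 counts per 10000 in Dlx-positive cells. In pallial cells they were at 66.0, 71.3, 88.5 and 80.6, in the same order of libraries. All 12 genes of the radial glia list had a positive interaction, and none was called.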

How the results depend on the processing

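The counts of called genes moved most. With 1 library left out in turn they ran from 7 to 41 for genotype over all cells, 14 to 105 in Fabp7-positive cells, 2 to 119 in pallial Fabp7-positive cells, 193 to 360 for Dlx-positive against pallial cells and 0 to 97 for the interaction, with the highest genotype and interaction counts in the Fabp7-positive fits without WT6 and over all cells without Het5. Of the 9 genes, 0 to 1 were then called by genotype in Fabp7-positive cells, 0 to 1 in pallial cells, 1 to 3 between classes and 0 to 1 in the interaction. In Fabp7-positive cells 6 genes were called by genotype with *Fabp7* at 1 UMI. In pallial cells 7 were called with no filter, 7 with the class at 1 UMI and 9 with UMIs summed, and 1 of the 9 genes (*Olig1*, -2.43, limma, adjusted p = 0.0493) with *Fabp7* at 30 per 10000. Between classes 139 genes were called with 0.01 added, 167 with no filter, 3876 with *Fabp7* at 1 UMI, 50 with *Fabp7* at 30 per 10000 and 3994 over all cells of both classes. Of the 9 genes, 0, 1, 4, 1 and 4 were called under those 5 settings and 6 with the class at 1 UMI, where 3.8% of all genes were. With *Fabp7* at 1 UMI 48.8% of all genes were called, and over all cells of both classes 50%. For the interaction 0 were called with 0.01 added, no filter, UMIs summed or the class at 3 UMIs, 1 with *Fabp7* or the class at 1 UMI, 4 with *Fabp7* at 30 per 10000 and 7 with pallial cells by *Emx1* and *Emx2* alone, 1 of them among the 9. Between cells with and without *Olig1*, 60 were called with 0.01 added, 43 with no filter and 769 with *Fabp7* at 1 UMI, the last with 7 of the 9 genes. The part of *Olig1* UMIs in radial glia-like clusters was 73.6%, and it was 63.4% at the lower resolution and 52.9% with the 9 genes kept in the clustering. The cause of these moves was not tested.

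Signs reversed only for differences that had not passed the test. By genotype, *Mt3* gave -0.0042 with *Fabp7* at 30 per 10000 and, with 1 library left out, -0.0018 (WT3) to 0.30 (WT6) in Fabp7-positive cells, and *Olig1* -2.19 (Het5) to 0.073 (Het9) in pallial cells. Between classes, *Olig1* gave -0.39 without Het9 to 1.22 without Het5, *Ednrb* -0.065 without WT6 to 0.55 without WT3, *Mt3* -0.28 with *Fabp7* at 1 UMI, -0.15 with pallial cells by *Emx1* and *Emx2* and -0.64 over all cells, and *Fgfbp3* -0.18 with *Fabp7* at 1 UMI, -0.081 with the class at 3 UMIs and -0.41 over all cells. Between cells with and without *Olig1*, *Mt3* gave -0.44 with *Fabp7* at 30 per 10000, -0.30 with *Olig1* at 2 UMIs, -0.19 without WT3, -0.094 without WT6 and 0.29 without Het9. *Fgfbp3* gave -0.40, -0.16, -0.22 and -0.076 under the first 4 of these, 0.32 without Het5, and -0.0017 with UMIs summed. Among values for single genes under alternatives that kept all libraries, 227 kept their direction and side of the threshold, 18 newly passed it, 8 no longer did and 12 reversed. The 5 alternatives with classes from *Emx1* and *Emx2*, with Dlx-positive cells alone or left out, or over all cells of both classes were chosen after seeing the data. No paired analysis was possible because the library names within the cell names match no replicate number on the labels. This concerns genotype, since contrasts within libraries had the library as a block.

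The interaction rests on 9 to 22 Dlx-positive cells per library, and *Pdgfra*, at 29 UMIs in all, passed the filter on low genes only between cells with and without *Olig1*.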
